A study of Mus musculus with 6 samples.

Results

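The genes described here act in the timing of development around the RNA-binding protein LIN28 and the microRNA let-7. They were taken by name from a list of 9 (Lin28a, Lin28b, Trim71, Hmga1, Hmga2, Igf2bp1, Igf2bp2, Igf2bp3 and L1td1), and 7 of the 9 had a row of the array with that single gene symbol, out of 19938 genes with 1 symbol in all. Hmga1 and Igf2bp2 are not analysed here. Where a gene had several rows, the row with the highest mean was used, which concerned Igf2bp1 alone among the 7.

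RNA was measured on 6 Affymetrix whole-transcript arrays of cultured mouse cells of strain 129, with no genetic change named for any culture. Epiblast stem cells (EpiSCs), pluripotent cells of the postimplantation embryo, were kept in knockout serum replacement with FGF2 (1 array). Rosettes, an early neural epithelium patterned toward ventral neural tube, were obtained from EpiSCs at day 5 with SB431542, Dorsomorphin, Noggin, retinoic acid and SHH (1 array). Oligodendrocyte progenitor cells (OPCs) came from dissociated rosettes and were expanded in N2B27 medium containing FGF2, PDGF-AA and SHH (1 array at passage 11 and 1 at passage 3). Oligodendrocytes were derived from OPCs of those passages with thyroid hormone and without FGF2 and PDGF-AA (1 array at passage 11 and 1 at passage 3). The labels name no cell line. Nothing in them shows that cultures of a group were grown independently, so a p-value here reflects just how these arrays vary, which may be technical. The 2 arrays of OPCs are of different passages, as are those of oligodendrocytes, so the spread within each group holds the passage difference. All cells descend from EpiSCs in culture, and the series compares these stages with each other and not with cells taken from an animal.

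LIN28 proteins bind the precursors of let-7 and block their maturation, and let-7 in turn silences Lin28a, Lin28b, Trim71, Hmga2 and the Igf2bp genes through sites in their mRNAs. The loop was found in Caenorhabditis elegans as a set of heterochronic genes, whose mutants repeat or skip stages of larval life. In mammals LIN28 is high in early embryos and pluripotent cells and declines as tissues mature, while mature let-7 accumulates with neural differentiation. HMGA2 and the IGF2BP proteins are oncofetal factors, made in the embryo, mostly silent in adult tissue and often made again in tumours.

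The let-7 family shares 1 seed, bases 2 to 8 of the mature strand, which pairs with target mRNAs. The RefSeq table for GRCm38.p6 gave 9 mature let-7 family sequences with the seed GAGGUAG. The miR-125 pair, relatives of the worm timing microRNA lin-4, carries the seed CCCUGAG, and miR-99a, miR-99b and miR-100 carry ACCCGUA. Some of these microRNAs lie beside each other in the genome, as the miR-100, let-7a-2 and miR-125b-1 genes do on chromosome 9. Examples of the 3 families are shown with the seed in capitals.
let-7a-5p: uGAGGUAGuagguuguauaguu
let-7b-5p: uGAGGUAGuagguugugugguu
let-7g-5p: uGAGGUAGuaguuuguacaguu
miR-98-5p: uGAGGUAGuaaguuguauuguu
miR-125b-5p: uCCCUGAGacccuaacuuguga
miR-99a-5p: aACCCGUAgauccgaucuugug
miR-100-5p: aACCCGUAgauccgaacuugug

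LIN28 grips let-7 precursors at a GGAG motif in the terminal loop. Of 12 let-7 family hairpins in the RefSeq table, 9 held GGAG between the mature arms (75%), against 58 of 644 mouse hairpins with both arms listed (9.01%). The 3 without the motif were Mirlet7b, Mirlet7c-2 and Mir98. A pair with and a pair without it are shown, with GGAG between the arms in capitals: Mirlet7a-1 (chr13:48538179-48538272, minus strand), Mirlet7g (chr9:106178840-106178927, plus strand), Mirlet7b (chr15:85707319-85707403, plus strand) and Mir98 (chrX:151913214-151913321, plus strand). A missing match says only that these letters are not in the loop.
Mirlet7a-1: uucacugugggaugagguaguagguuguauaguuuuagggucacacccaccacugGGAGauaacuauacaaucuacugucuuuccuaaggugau
Mirlet7g: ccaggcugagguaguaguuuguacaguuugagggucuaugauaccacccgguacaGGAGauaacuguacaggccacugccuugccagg
Mirlet7b: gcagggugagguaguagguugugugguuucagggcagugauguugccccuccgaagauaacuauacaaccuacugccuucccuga
Mir98: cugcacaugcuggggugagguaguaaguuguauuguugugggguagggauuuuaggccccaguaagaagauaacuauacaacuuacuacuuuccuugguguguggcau

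Levels below are log2 expression values and differences between groups are on the log2 scale, with the standard error (SE) that limma, a linear model over all genes, gave them. Levels are compared within a gene and not between genes. Genes were called at an adjusted p under 0.05 over all 19938 genes. The cell identities given by the labels were checked with marker genes. The 6 EpiSC markers summed to 76.4 on the EpiSC array and to 48.3 to 50.02 on the other 5, and the pluripotency factor Pou5f1 stood at 13.02 on the EpiSC array and at 7.33 to 7.76 on the others. The 6 OPC markers summed to 72.9 to 73.8 in OPCs, against 49.8 and 53.2 in EpiSCs and the rosette. They summed to 71.6 and 71.2 in oligodendrocytes of passages 11 and 3, so they separate OPCs from the earlier stages and hardly from oligodendrocytes. The 5 measured oligodendrocyte markers summed to 62.9 to 64.3 in oligodendrocytes and to 43.7 to 45.0 elsewhere. The 6 neuron markers, which belong to a cell type beyond the rosette stage, summed to 73.4 on the rosette array and to 52.3 to 60.4 on the others; their part in the rosette values below was not tested. In such bulk cultures fewer cells of a type and less RNA per cell cannot be told apart.

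The 7 genes showed 3 patterns along the lineage. Lin28a, Trim71 and L1td1 were highest in EpiSCs and lower already in the rosette. Lin28b and Igf2bp1 were at similar levels in EpiSCs and the rosette and lower in OPCs. Hmga2 and Igf2bp3 were present at EpiSC-like levels or somewhat below in OPCs and were lower in oligodendrocytes, a difference that was not called. It is the level in OPCs that sets them apart, because Lin28b, Trim71 and Igf2bp1 also had their lowest means in oligodendrocytes.

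**Figure D1:**
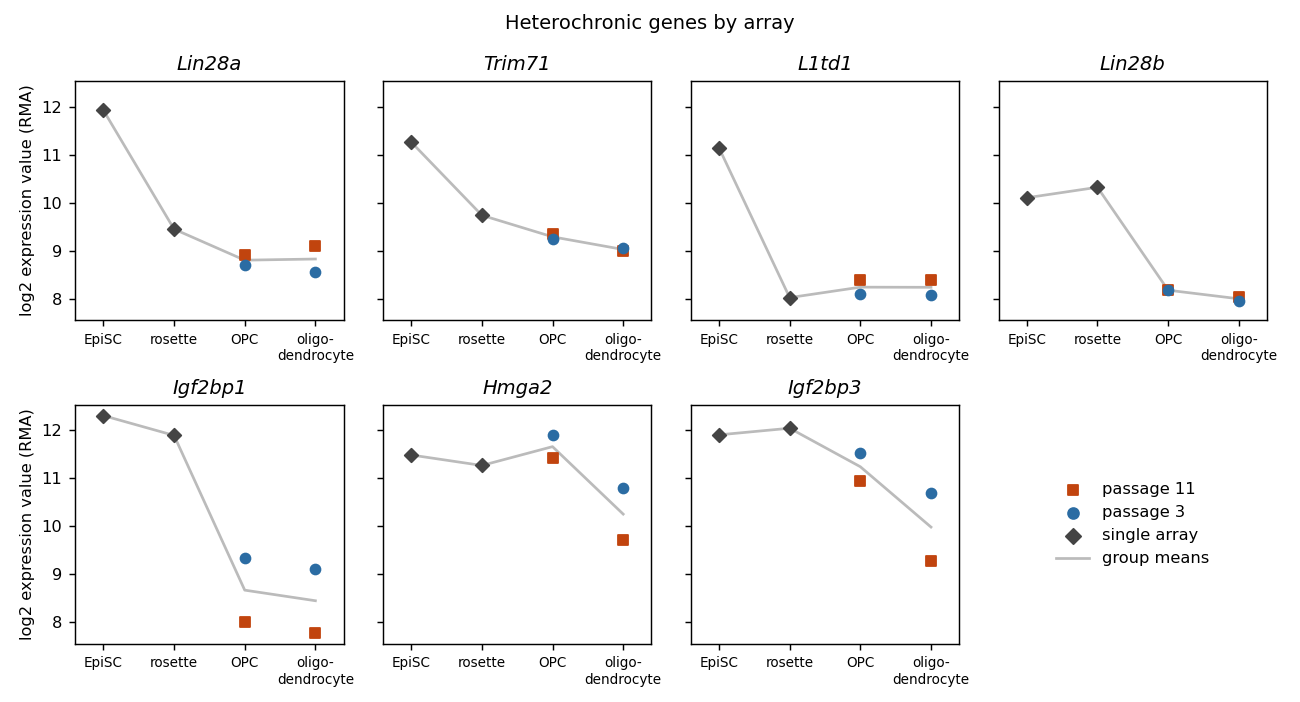
Log2 expression value (vertical axis) of the 7 genes by cell stage (horizontal axis), 1 point an array, with passage 11 as squares, passage 3 as circles, single arrays as diamonds and group means joined by a line. Lin28a is at 9.45 in the rosette, against 11.92 in EpiSCs, Lin28b stays at 10.32 in the rosette and stands at 8.17 to 8.18 in OPCs, and Hmga2 stays at 11.42 to 11.89 in OPCs.

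Lin28a, which encodes the LIN28 protein of pluripotent cells and blocks let-7 maturation, had a log2 value of 11.92 in EpiSCs, 9.45 in the rosette, 8.91 and 8.70 in OPCs of passages 11 and 3, and 9.09 and 8.56 in oligodendrocytes of passages 11 and 3. The EpiSC array stood above the other 5, and the rosette above all 4 glial arrays. The rosette was 5.56-fold lower than EpiSCs (log2 difference -2.47), with 1 array on each side and therefore no test. OPCs averaged 8.80 ± 0.14 (SD, n = 2), against 11.92 in EpiSCs, and Lin28a fell by 3.12 ± 0.27 (SE, 8.70-fold) in limma (adjusted p = 0.00492).

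Trim71 encodes the mouse relative of the worm timing factor LIN-41, a ubiquitin ligase and mRNA repressor that is itself a let-7 target. Its log2 value was 11.26 in EpiSCs, 9.74 in the rosette, 9.35 and 9.23 in OPCs of passages 11 and 3, and 8.99 and 9.06 in oligodendrocytes of passages 11 and 3. The values descend by stage with no overlap between groups. The rosette was 2.88-fold lower than EpiSCs (-1.52, no test). Trim71 averaged 9.29 ± 0.08 in OPCs (SD, n = 2) and fell by 1.97 ± 0.17 relative to EpiSCs in limma (3.92-fold, adjusted p = 0.00492).

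L1td1 derives from a LINE-1 element and encodes an RNA-binding protein that associates with LIN28 in pluripotent cells. Its log2 value was 11.14 in EpiSCs and 8.02 in the rosette, then 8.38 and 8.10 in OPCs of passages 11 and 3, and 8.39 and 8.09 in oligodendrocytes of passages 11 and 3. The EpiSC array alone was high, and the other 5 lay between 8.02 and 8.39. L1td1 was 8.68-fold lower in the rosette than in EpiSCs (-3.12, no test), and in OPCs it fell by 2.90 ± 0.22 relative to EpiSCs in limma (adjusted p = 0.00412). It differed by 0.22 ± 0.22 between OPCs and the rosette, with OPCs higher (adjusted p = 0.794).

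Lin28a and L1td1, 2 of the 7, lay 4-fold or more below EpiSCs in the rosette, as 0.797% of all genes did. With Trim71, 3 of 7 were at least 2-fold lower, against 3.69% of all genes. None of the 7 was at least 2-fold higher. The median of the 7 differences was -0.41, against -0.07 over all genes.

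The promoters of the 3 genes that dropped first are shown because they share that pattern. RefSeq windows of 250 bases before to 50 after the start were available for 6 of the 7 genes. Each was searched on both strands for an octamer (ATGCAAAT, bound by POU factors such as OCT4), a SOX core (CATTGT), an E-box (CACGTG) and a GC box (GGGCGG), which do not overlap in the windows shown. These motifs were present in 1.74%, 12.6%, 7.15% and 35.7% of the 32851 promoters of the table. The Lin28a window (chr4:134018767-134019066, minus strand) held 1 SOX core and 1 GC box, the Trim71 window (chr9:114564320-114564619, minus strand) held 1 GC box, and the L1td1 window (chr4:98726504-98726803, plus strand) held none of the 4. The windows held 10, 19 and 14 CpG dinucleotides in that order, against a median of 7 over all promoters. The Lin28a window lay inside the gene span (chr4:134003330-134019196), so it is not at the outermost start of that gene. Matches are in capitals and are a description of the letters, not of binding.
Lin28a: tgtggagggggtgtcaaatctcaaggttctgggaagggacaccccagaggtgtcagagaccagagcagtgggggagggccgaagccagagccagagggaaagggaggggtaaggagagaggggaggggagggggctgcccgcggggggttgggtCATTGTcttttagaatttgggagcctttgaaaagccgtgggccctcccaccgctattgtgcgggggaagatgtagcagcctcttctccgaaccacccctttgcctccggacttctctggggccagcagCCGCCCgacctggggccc
Trim71: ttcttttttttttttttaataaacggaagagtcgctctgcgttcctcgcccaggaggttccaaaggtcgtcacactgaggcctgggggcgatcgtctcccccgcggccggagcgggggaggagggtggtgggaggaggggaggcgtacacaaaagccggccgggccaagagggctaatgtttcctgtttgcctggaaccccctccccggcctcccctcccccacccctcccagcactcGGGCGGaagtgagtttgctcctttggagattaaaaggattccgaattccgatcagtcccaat
L1td1: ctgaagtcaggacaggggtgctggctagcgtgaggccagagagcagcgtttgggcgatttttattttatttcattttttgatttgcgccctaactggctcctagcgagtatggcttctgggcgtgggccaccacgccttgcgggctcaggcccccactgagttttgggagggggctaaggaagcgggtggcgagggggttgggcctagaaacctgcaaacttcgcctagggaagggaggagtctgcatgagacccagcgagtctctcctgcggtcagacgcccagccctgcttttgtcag

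Lin28b encodes the second LIN28 protein, which shares the let-7 precursor as its target. It had a log2 value of 10.10 in EpiSCs, 10.32 in the rosette, 8.18 and 8.17 in OPCs of passages 11 and 3, and 8.04 and 7.96 in oligodendrocytes of passages 11 and 3. EpiSCs and the rosette were high and all 4 glial arrays were low, without overlap. OPCs averaged 8.18 ± 0.01 (SD, n = 2), against 10.32 in the rosette, and Lin28b fell by 2.14 ± 0.17 in limma (4.41-fold, adjusted p = 0.00785). Relative to EpiSCs, at 10.10, it fell by 1.92 ± 0.17 (adjusted p = 0.00492), a comparison that shares its OPC arrays with the previous one. The Lin28b promoter window (chr10:45470152-45470451, minus strand) lay inside the gene span (chr10:45376617-45486314). It is thus not at the outermost start of the gene, and neither are the Lin28a and Igf2bp3 windows. The Lin28b window held 1 E-box. Of its bases 39.0% were G or C, against a median of 52.7% over all promoters and 63.3% for Lin28a.

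The Lin28 paralogs had their main difference at different steps. In the rosette relative to EpiSCs, Lin28a was at -2.47 and Lin28b at 0.22. In OPCs relative to the rosette, Lin28a was at -0.65 ± 0.27 (limma, adjusted p = 0.351) and Lin28b at -2.14 ± 0.17. The differences between the paralogs were not tested.

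Igf2bp1 encodes an oncofetal mRNA-binding protein that stabilises and localises transcripts such as those of Actb, Myc and Igf2. It had a log2 value of 12.31 in EpiSCs, 11.89 in the rosette, 8.01 and 9.34 in OPCs of passages 11 and 3, and 7.78 and 9.12 in oligodendrocytes of passages 11 and 3. Both early arrays lay above all glial arrays, and within each glial type passage 11 was the lower. Igf2bp1 had the widest range of the 7 over the 6 arrays, 4.52. OPCs averaged 8.67 ± 0.94 (SD, n = 2), against 12.31 in EpiSCs, and Igf2bp1 fell by 3.63 ± 0.73 (12.4-fold) in limma (adjusted p = 0.0496). The call was lost without the passage 11 OPC array, at -2.97 with an adjusted p of 0.0868, and over all alternatives the adjusted p ranged from 9.87e-06 to 0.0868.

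Relative to the rosette, Igf2bp1 in OPCs stood at -3.22 ± 0.73 and was not called in limma (adjusted p = 0.101). With passage as a replicate block it was called (adjusted p = 0.00846), and over all alternatives the adjusted p ranged from 4.42e-05 to 0.207. The block takes the passage difference that OPCs (-1.33) and oligodendrocytes (-1.34) share out of the spread applied to the lone rosette array. The second array row of Igf2bp1 gave -2.64 for OPCs relative to the rosette and -3.18 relative to EpiSCs.

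**Figure D2:**
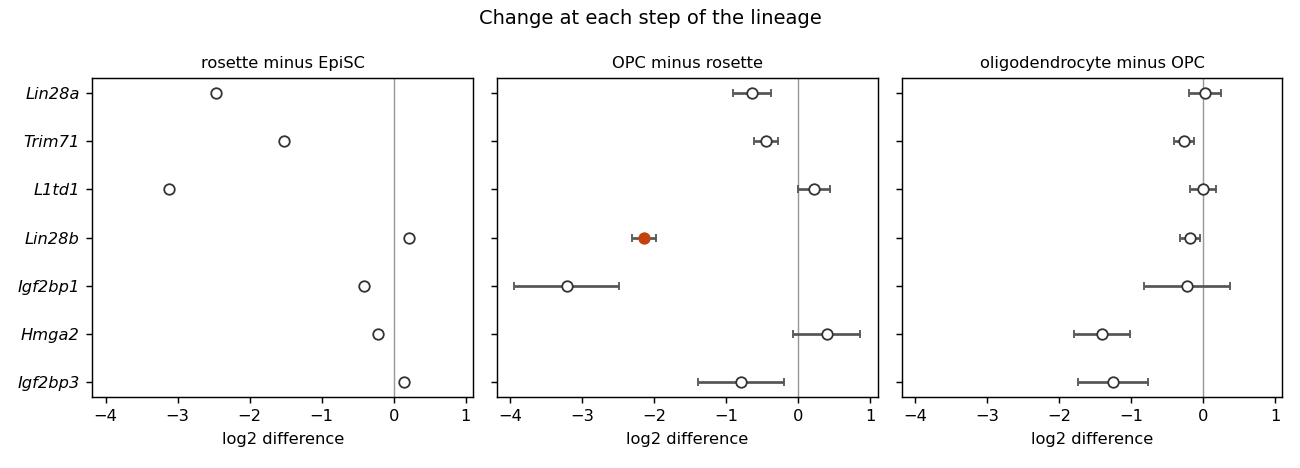
Log2 difference (horizontal axis) of each gene at the 3 steps of the lineage, with bars for the SE of the limma fit, filled points for genes called and open points for the rest. The step from EpiSC to rosette has 1 array a side and no error bar. Lin28a, Trim71 and L1td1 stand at -2.47, -1.52 and -3.12 in the first step, Lin28b and Igf2bp1 at -2.14 and -3.22 in the second, and Hmga2 and Igf2bp3 at -1.40 and -1.26 in the third.

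For the comparison of OPCs with EpiSCs, 5 of the 7 genes fell (Lin28a, Lin28b, Trim71, L1td1 and Igf2bp1), where 2.93% of all genes were called lower, and none rose. The median of the 7 differences was -1.97, against -0.05 over all genes. For OPCs against the rosette, 1 of the 7 fell, Lin28b, where 1.87% of all genes were called lower. That median was -0.65, against 0.02 over all genes. Without either oligodendrocyte array, the spread of OPCs alone remained in the fit, and 2897 genes (14.5%) were called, against 624 with all arrays. Of the 7, 4 were then called: Lin28b, Igf2bp1 (adjusted p = 4.42e-05), Igf2bp3 (-0.80, adjusted p = 0.0317) and Lin28a (-0.65, adjusted p = 0.0330).

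Hmga2 encodes an architectural chromatin protein of embryonic and neural stem cells and is a classical let-7 target with many sites. Its log2 value was 11.49 in EpiSCs, 11.27 in the rosette, 11.42 and 11.89 in OPCs of passages 11 and 3, and 9.71 and 10.80 in oligodendrocytes of passages 11 and 3. OPCs held the level of the earlier stages, and both oligodendrocyte arrays lay below all others. OPCs differed from EpiSCs by 0.17 ± 0.47 (adjusted p = 0.946) and from the rosette by 0.39 ± 0.47 (adjusted p = 0.828). Oligodendrocytes averaged 10.26 ± 0.765 and OPCs 11.66 ± 0.33 (SD, n = 2 each), a difference of -1.40 ± 0.38 that was not called in limma (adjusted p = 0.252). The difference was -1.71 at passage 11 and -1.10 at passage 3.

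Igf2bp3 encodes another oncofetal mRNA-binding protein of the same family as Igf2bp1. Its log2 value was 11.90 in EpiSCs, 12.04 in the rosette, 10.95 and 11.53 in OPCs of passages 11 and 3, and 9.28 and 10.69 in oligodendrocytes of passages 11 and 3. Oligodendrocytes lay below all other arrays, as for Hmga2, with the passage 11 array lowest. Igf2bp3 averaged 9.99 ± 0.998 in oligodendrocytes and 11.24 ± 0.41 in OPCs (SD, n = 2 each), a difference of -1.26 ± 0.49 that was not called in limma (adjusted p = 0.391). Between OPCs and the rosette it differed by -0.80 ± 0.60 (adjusted p = 0.677), where Igf2bp1 stood at -3.22. The promoter window of Igf2bp3 held 2 E-boxes and 25 CpG dinucleotides, the most of the 6 windows.

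None of the 7 genes was called between oligodendrocytes and OPCs, where 0.446% of all genes were. In 4 of the 7 (Lin28b, Trim71, Hmga2 and Igf2bp3) both oligodendrocyte arrays lay below both OPC arrays, which was the case for 21.1% of all genes. With passage as a replicate block, Hmga2 and Igf2bp3 were not called either (limma, adjusted p = 0.0772 and 0.109). Fits without 1 oligodendrocyte array unbalance the passages and keep 1 array in that group, so effect sizes alone are given here. Without passage 11 oligodendrocytes Hmga2 was at -0.86 and Igf2bp3 at -0.55. Without passage 3 oligodendrocytes Hmga2 was at -1.94 and Igf2bp3 at -1.96. Lin28a, L1td1, Trim71 and Lin28b differed by 0.02, -0.00, -0.26 and -0.18 between oligodendrocytes and OPCs.

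Proliferation markers moved along with Hmga2 and Igf2bp3. The 3 measured markers Mki67, Top2a and Bub1, which are genes of dividing cells, summed to 30.6 and 34.3 in oligodendrocytes of passages 11 and 3, against 36.3 and 36.7 in OPCs of the same passages. All 3 were lower in oligodendrocytes at both passages. Their part in the values of Hmga2 and Igf2bp3 was not tested.

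Passage, the number of times the OPCs had been split, was compared over the 4 glial arrays with cell type as a covariate. None of the 7 genes was called, and 0.0% of all genes were called (0 of 19938) in limma. At an unadjusted p under 0.05 limma gave 2769 genes (13.9%) and 3 of the 7, namely Igf2bp1, Hmga2 and Igf2bp3. That fit has 1 residual degree of freedom, which is the disagreement between the cell types, so its SEs do not hold the spread between cultures of a passage.

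For Igf2bp1, passage 11 minus passage 3 was -1.34 in oligodendrocytes and -1.33 in OPCs, with a fitted difference of -1.33 ± 0.11 (limma, adjusted p = 0.312). The second array row of Igf2bp1 gave smaller differences of -0.61 in oligodendrocytes and -0.42 in OPCs, so the rows differ in size and share the direction, and the mean of the rows gave a fitted -0.92. Hmga2 was at -1.08 in oligodendrocytes and -0.47 in OPCs (fitted difference -0.78 ± 0.19, limma, adjusted p = 0.357). Igf2bp3 was at -1.41 in oligodendrocytes and -0.59 in OPCs (fitted difference -0.998 ± 0.23, limma, adjusted p = 0.357). These 3 of 7 were lower in both cell types, as 28.5% of all genes were, and Lin28a, Lin28b and L1td1 were higher in both, as 40.1% of all genes were. Lin28a was higher at passage 11 by 0.53 in oligodendrocytes and by 0.20 in OPCs, and L1td1 by 0.30 and 0.28. All 6 EpiSC markers were higher at passage 11 too, summing to 50.02 against 48.5 in oligodendrocytes and to 49.8 against 48.6 in OPCs. The 4 microglia and macrophage markers summed to 32.6 against 31.9 and to 32.3 against 32.0. Whether the Lin28a and L1td1 differences share a cause with these was not tested.

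Markers of other cell types also differed by passage. The 4 pericyte and smooth muscle markers summed to 37.2 at passage 11 and 43.9 at passage 3 in oligodendrocytes, and to 36.7 and 39.5 in OPCs of those passages. Of these markers 3 of 4 were lower at passage 11 in each cell type, with Rgs5 the exception at 7.27 to 7.35 on all 4 arrays. The 8 fibroblast and mesenchyme markers summed to 69.5 at passage 11 and 72.7 at passage 3 in oligodendrocytes (7 of 8 lower at passage 11), and to 68.1 and 68.8 in OPCs (4 of 8 lower). The 6 astrocyte markers summed to 58.8 and 63.3 in oligodendrocytes of passages 11 and 3 (4 of 6 lower at passage 11) and to 56.0 and 60.5 in OPCs of those passages (5 of 6 lower). In OPCs of passages 11 and 3, Aldh1l1 was at 8.65 and 11.25, and Gfap at 8.11 in both. In oligodendrocytes of passages 11 and 3, Aldh1l1 was at 9.36 and 10.71, Gfap at 8.69 and 10.50, and Aqp4 at 8.47 and 9.89. Slc1a2 was higher at passage 11, at 10.41 against 9.61 in oligodendrocytes and 9.87 against 9.62 in OPCs. The 6 neuron markers summed to 55.5 and 60.4 in oligodendrocytes of passages 11 and 3 (5 of 6 lower at passage 11) and to 56.7 and 59.2 in OPCs of those passages (3 of 6 lower). Most of the difference in both sums came from Stmn2, a tubulin-binding protein gene of neurons. It was at 8.12 and 12.56 in oligodendrocytes of passages 11 and 3, and at 7.82 and 10.48 in OPCs of those passages. Tubb3 was higher at passage 11 in oligodendrocytes, at 10.32 against 9.11, and Syt1 in OPCs, at 10.82 against 10.52. Stmn2 was also at 12.79 in EpiSCs, where Tubb3, the next highest neuron marker, was at 8.75. Its level therefore does not mark neurons alone in these cultures. The proliferation sums given above were lower at passage 11 in both cell types. The part of these cells and of proliferation in the passage values of Igf2bp1, Hmga2 and Igf2bp3 was not tested.

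**Figure D3:**
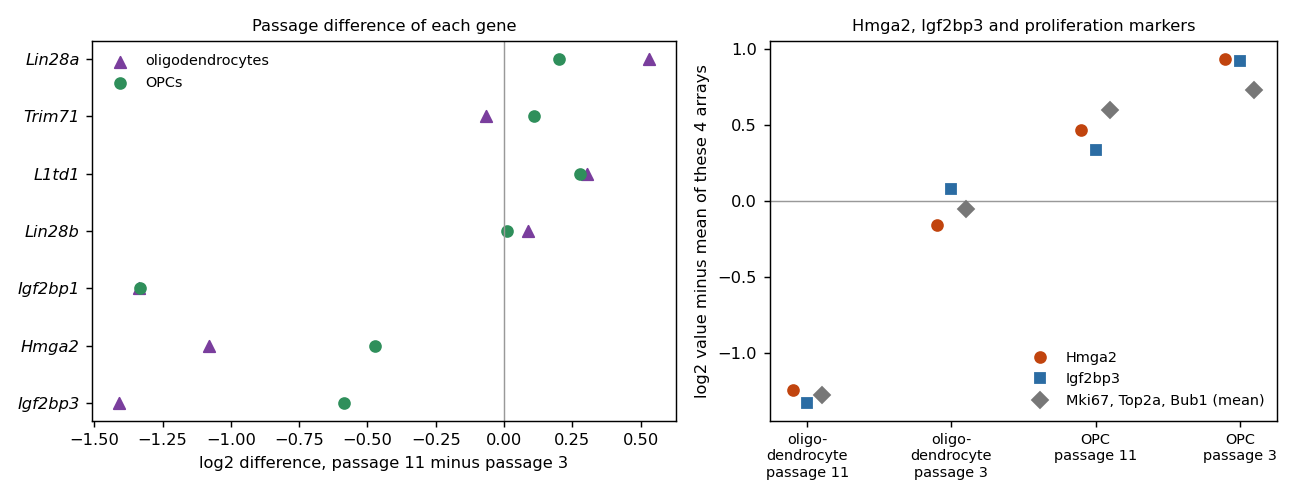
Left, log2 difference of passage 11 minus passage 3 (horizontal axis) for each gene in oligodendrocytes (triangles) and OPCs (circles), 1 array a point on each side. Right, Hmga2, Igf2bp3 and the mean of Mki67, Top2a and Bub1 on the 4 glial arrays, each as the log2 value minus its own mean over these arrays (vertical axis). Igf2bp1 lies at -1.34 and -1.33 on the left, and on the right the values of all 3 are lowest in oligodendrocytes of passage 11.

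By level, Lin28a, Trim71 and Igf2bp1 were highest in EpiSCs and second in the rosette, while Lin28b and Igf2bp3 were highest in the rosette with EpiSCs next. Hmga2 was highest in OPCs and L1td1 lowest in the rosette. The EpiSC and rosette arrays of Lin28b, Igf2bp3, Hmga2 and Igf2bp1 differed by 0.22, 0.14, -0.22 and -0.41 (rosette minus EpiSC). With 1 array each, these neighbours in the order cannot be set against a spread of their own. OPCs and oligodendrocytes stood next to each other in the order for Lin28a, L1td1 and Igf2bp1, and their means differed by less than the SD within either group. That SD is between passages 11 and 3. Within these passages, oligodendrocytes minus OPCs were at -0.22 and -0.22 for Igf2bp1. The same differences were 0.19 and -0.14 for Lin28a and 0.01 and -0.01 for L1td1, with 1 array on each side and no test.

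The genes most like each of the 7 were sought by Pearson correlation over the 6 arrays, among 1560 named genes with a range of at least 2. The points share 4 cell types, so these values describe the profiles only. Closest to Lin28a were Car4 (r = 0.997), Zfp980 (0.997) and the Wnt effector gene Lef1 (0.996). Closest to L1td1 were Crispld1, Epha1 and Slc39a4 (0.998 to 0.999), and to Trim71 Lhpp, Etfbkmt and Polr3g (0.988 to 0.994). Lin28b was most like Prelid2, Camsap3 and Cmtm8 (0.990 to 0.993), and Igf2bp1 most like Zdbf2, Pcbd1 and Gpx3 (0.985 to 0.993). Hmga2 was most like Kif4, Gas2l3 and Mki67 (0.979 to 0.982), and Igf2bp3 most like Tead2, Ccnb2 and Cep78 (0.984 to 0.991). Kif4, Mki67 and Ccnb2 are genes of mitosis and proliferation. Among the 7 themselves, Trim71 and Lin28a correlated at 0.974, L1td1 and Lin28a at 0.961, Igf2bp3 and Hmga2 at 0.872, and Hmga2 and Lin28a at 0.197.

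Other genes that let-7 is known to silence were listed next to the 7. Of 17 measured targets of 20 listed, 4 fell and 1 rose in OPCs relative to EpiSCs, where 2.93% of all genes were called lower and 4.07% higher. The list median was -0.38, against -0.05 over all genes. Relative to the rosette 5 fell and 1 rose, where 1.87% and 1.26% of all genes were called lower and higher, with a median of -0.43 against 0.02. Between oligodendrocytes and OPCs, and between passages, none of the 17 was called.

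Mycn, a MYC family factor of embryonic and neural progenitors, had log2 values of 9.15 and 9.17 in OPCs of passages 11 and 3, against 12.06 in EpiSCs and 11.04 in the rosette. It fell in OPCs relative to EpiSCs (-2.90 ± 0.17, adjusted p = 0.00235) and relative to the rosette (-1.88 ± 0.17, adjusted p = 0.00931). Arid3b, an AT-rich DNA-binding factor, fell likewise, at -2.43 and -1.71 (adjusted p = 0.00449 and 0.0181). Nr6a1, an orphan nuclear receptor of the embryo, fell at -2.26 and -1.44 (adjusted p = 0.00364 and 0.0176). The zinc finger gene Plag1 was highest in the rosette, at 10.07, and had 7.15 and 7.48 in OPCs. It fell relative to the rosette (-2.76, adjusted p = 0.0186) and relative to EpiSCs (-1.76, adjusted p = 0.0389). The TGF-beta receptor gene Tgfbr1 fell by 1.46 relative to the rosette (adjusted p = 0.0262). Relative to the rosette, Mycn, Arid3b, Nr6a1, Tgfbr1 and Myc lost their call without either OPC array (adjusted p = 0.0562 to 0.156), as Plag1 did without the passage 11 array (0.0628). Relative to EpiSCs, Plag1 lost its call without either OPC array (0.0793 and 0.135) and Myc without the passage 11 array (0.0573). With passage as a replicate block, Plagl2 was also called lower relative to the rosette (-1.28, adjusted p = 0.0255).

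Myc, also listed as a let-7 target, had the opposite direction. It had 11.95 and 11.82 in OPCs of passages 11 and 3, against 9.30 in EpiSCs and 9.59 in the rosette. It rose by 2.59 relative to EpiSCs (adjusted p = 0.0193) and by 2.30 relative to the rosette (adjusted p = 0.0430). OPCs were thus low for Mycn and high for Myc.

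**Figure D4:**
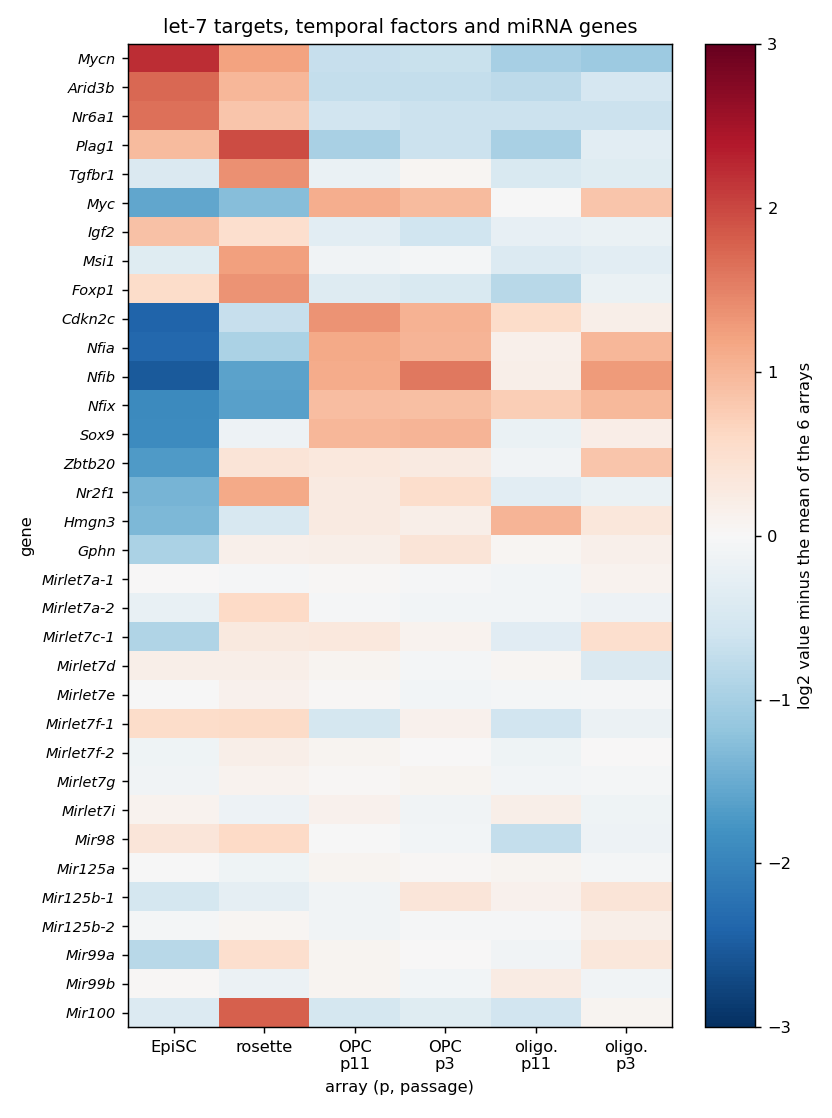
Log2 value minus the mean of the 6 arrays (colour) for genes of the accompanying lists that were called in a comparison and for the 16 measured microRNA genes, 1 column an array. Mycn, Arid3b and Nr6a1 are above their mean in EpiSCs and the rosette and below it in glial cells, Nfia, Nfib and Nfix are below their mean in EpiSCs and the rosette, and most let-7 genes stay near their mean.

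The microRNA genes themselves were read as rows of the array. Such rows report the primary or precursor transcript in labelled total RNA, and not the mature microRNA. Of 18 listed genes of the let-7, miR-125, miR-99 and miR-100 families, 16 had a row of their own, 10 of them of the let-7 family. The range over the 6 arrays had a median of 0.48 among the 10 let-7 genes, from 0.18 for Mirlet7a-1 to 1.41 for Mirlet7c-1. Mirlet7g, whose hairpin and seed are shown above, lay between 6.93 and 7.14 on all 6 arrays. Of the let-7 rows, only Mirlet7d, Mirlet7e and Mirlet7i lay above the array medians, with medians of 9.32, 8.86 and 9.27 over the 6 arrays. The rest, Mirlet7g and Mirlet7a-1 among them, lay below the median of every array. Such low values can be background, so a small range there does not show that a transcript was steady. None of the 10 was called in any of the 4 tested comparisons in limma.

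Mir100 was the 1 microRNA gene called. It stood at 8.75 in the rosette, 6.54 in EpiSCs, 6.42 and 6.59 in OPCs of passages 11 and 3, and 6.37 and 7.03 in oligodendrocytes of passages 11 and 3. The rosette array stood alone, and OPCs fell by 2.25 ± 0.30 relative to it in limma (adjusted p = 0.0280). The call was lost without either OPC array (adjusted p = 0.0700 and 0.101). Its neighbour Mirlet7a-2 was also highest in the rosette, at 7.34 against 6.53 in EpiSCs and 6.60 to 6.71 in glial cells, but was not called (OPC minus rosette -0.65, adjusted p = 0.133). Mir125b-1 had 6.88 in the rosette and 7.03 to 7.52 in glial cells, and was not called either. Apart from Mir100 in the rosette, all levels of Mir100, Mirlet7a-2 and Mir125b-1 lay below the array medians and can be background.

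Factors that process let-7 or work with LIN28 formed another list. Of 15 measured of 18 listed, none was called in OPCs relative to EpiSCs and 1 fell relative to the rosette, where 1.87% of all genes were called lower. That gene was Msi1, which encodes an RNA-binding protein of neural progenitors that works with LIN28 in the nucleus, at -1.32 ± 0.17 (adjusted p = 0.0232, and 0.133 and 0.165 without either OPC array). None of the 15 was called between oligodendrocytes and OPCs or between passages, and the list medians of the 4 comparisons lay between -0.28 and -0.22, against -0.05 to 0.04 over all genes. With passage as a replicate block, Ago2 (-0.74, adjusted p = 0.0479) and Tarbp2 (-0.78, adjusted p = 0.0435) were called relative to EpiSCs, and Ago1 (-0.97, adjusted p = 0.0409) relative to the rosette. Dicer1, the nuclease that cuts the precursor, stood between 10.96 and 11.58 on all arrays, and the nuclear nuclease gene Drosha between 9.59 and 10.93.

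Several factors of later progenitors rose. Of 12 listed factors of temporal progression in neural progenitors, 6 rose and none fell in OPCs relative to EpiSCs, where 4.07% of all genes were called higher, with a median of 1.60 against -0.05. They were Nfib, Nfia and Nfix, nuclear factor I genes that promote gliogenesis, at 3.88 ± 0.48, 3.44 ± 0.36 and 2.83 ± 0.18, the gliogenic factor gene Sox9 at 2.91, Zbtb20 at 1.99 and Nr2f1 at 1.79 (adjusted p = 0.00297 to 0.0479). The call of Zbtb20 was lost without either OPC array (0.121 and 0.136). Relative to the rosette 2 rose, Nfib at 2.95 (adjusted p = 0.0452) and Nfix at 2.55 (adjusted p = 0.00634), where 1.26% of all genes were called higher, and 1 fell, Foxp1 at -1.76 (adjusted p = 0.0452). The calls of Nfib (0.0801 and 0.101) and Foxp1 (0.140 and 0.148) relative to the rosette were lost without either OPC array. With passage as a replicate block, Nfia (2.03, adjusted p = 0.0490) and Sox9 (1.16, adjusted p = 0.0431) were also called higher relative to the rosette, and Nr2f2 (1.41, adjusted p = 0.0318) relative to EpiSCs. In the rosette 6 of the 12 were already at least 2-fold higher than in EpiSCs, against 6.91% of all genes.

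For the remaining lists, 2.93% of all genes were called lower and 4.07% higher in OPCs relative to EpiSCs, and 1.26% higher relative to the rosette. Igf2, a client mRNA of the IGF2BP proteins, fell by 1.35 in OPCs relative to EpiSCs (adjusted p = 0.0210), 1 of 9 measured clients and partners in a list that does not hold Myc. No other gene of that list was called in any of the 4 comparisons, and Actb stayed between 14.33 and 14.45. HMGA2 represses the INK4/ARF locus in neural stem cells, and its genes Cdkn2a and Cdkn2b were not called in any comparison, with Cdkn2a between 8.56 and 9.18 on all 6 arrays. Their relative Cdkn2c, an inhibitor of CDK4 and CDK6, rose by 3.595 ± 0.24 in OPCs relative to EpiSCs (12.1-fold, adjusted p = 0.00310) and by 1.89 relative to the rosette (adjusted p = 0.0232). Of 7 other HMG genes, 1 rose, Hmgn3 at 1.57 relative to EpiSCs (adjusted p = 0.0446). Of 6 mouse relatives of further worm heterochronic genes, 1 rose in the same comparison, Gphn, related to worm lin-46, at 1.23 (adjusted p = 0.0239). Without either OPC array the calls of Igf2, Hmgn3 and Gphn relative to EpiSCs and of Cdkn2c relative to the rosette were lost (adjusted p = 0.0598 to 0.154).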

How the data were processed

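Mouse cultures were measured on 6 arrays, 1 for each culture. The deposited table holds log2 values. The submitters' processing notes name RMA and the Affymetrix Expression Console program. The version and the background option were not given in the sources used here, so low values can be background and folds that involve them can be compressed. The 35556 rows ranged from 3.26 to 14.9, with array medians of 8.60 to 8.66. Rows were named from the platform annotation: 21789 had 1 symbol, 1621 several and 12146 none. The row with the highest mean was kept for each gene, which left 19938 genes, and 19856 of their Entrez IDs were in the RefSeq table (0 symbols changed).

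Differences were tested two-sided with limma 3.58.1 in R 4.3.3 (lmFit, eBayes) with Benjamini-Hochberg adjustment over all genes. The 4 cell types formed 1 fit of 6 arrays (2 residual degrees of freedom, 3.32 prior), in which the spread of the lone EpiSC and rosette arrays was taken from the OPC and oligodendrocyte pairs. Passage was fitted on the 4 glial arrays with cell type as a covariate (1 residual, 3.19 prior). The rosette and EpiSC arrays were compared by size, at least 4-fold. Fits were also run on simulated data to check effect sizes. The simulated noise was independent between arrays, without the passage deviations that OPCs and oligodendrocytes share, so it does not test the p-values given here.

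OPC and oligodendrocyte arrays pair by passage, because the labels derive oligodendrocytes from OPCs of that passage, and the passage deviations of the pair correlated at 0.503 over genes. The fit of the 4 cell types treated these deviations as independent unless passage was the replicate block. The replicate block is passage. The number of arrays limits the precision. The genes and lists were chosen with earlier results of these data known. Genes named are the 7 measured genes, the genes called in each list, microRNA genes, markers and the 3 nearest profiles (range of at least 2, predicted genes such as Gm and Rik names passed over). Genes called only with the replicate block, Stmn2, Tubb3, Syt1, Aldh1l1, Slc1a2, Dicer1, Drosha, Actb, Cdkn2a, Cdkn2b and which microRNA genes are described singly were chosen after their values were seen. Alternatives were the replicate block, an intensity trend, no dim genes, centred arrays, the mean of a gene's rows and leaving out each replicate.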

Additional observations from a re-analysis of the deposited data

Results flagged for a closer look

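In 3 cases the direction of a small log2 difference differed between passages or cell types, with 1 array on each side, and this was not tested. Lin28a in oligodendrocytes relative to OPCs was at 0.19 at passage 11 and -0.14 at passage 3. L1td1 in the same comparison was at 0.00919 at passage 11 and -0.0149 at passage 3. Trim71 at passage 11 relative to passage 3 was at -0.07 in oligodendrocytes and 0.11 in OPCs.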

How the results depend on the processing

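With passage as a replicate block, 2318 genes were called between OPCs and EpiSCs, against 1397 without it, and 1206 between OPCs and the rosette, against 624. The block raised the members called between OPCs and the rosette to 2, against 1, by adding Igf2bp1, and changed no other call among the members. Over the 89 measured list genes it added 3 calls relative to EpiSCs and 4 relative to the rosette, and lost none. Without each replicate in turn, OPC minus EpiSC gave 470 to 4154 genes, OPC minus rosette 156 to 2897 genes and 1 to 4 members, and oligodendrocyte minus OPC 2 to 2919 genes and 0 to 2 members. Oligodendrocyte minus OPC gave 89 genes, 20 without dim genes and 157 with centred arrays. The passage comparison gave 0 genes, 1 with an intensity trend, 2 with centred arrays and, at an unadjusted p under 0.05 (added after seeing the data), 2769 genes and 3 members. At a limit of 2-fold, 2113 genes differed between the rosette and EpiSCs, against 507 at 4-fold. Directions that turned belonged to differences that were not called. Without each replicate in turn, Hmga2 ranged from -0.0620 to 0.41 in OPCs relative to EpiSCs, and in oligodendrocytes relative to OPCs Lin28a ranged from -0.24 to 0.29, Igf2bp1 from -0.89 to 0.45 and L1td1 from -0.15 to 0.15. Trim71 by passage was at -0.0652 within oligodendrocytes. Leaving out 1 glial array unbalances the passages of the 2 cell types, so oligodendrocyte minus OPC then holds part of the passage difference. Within each passage, Igf2bp1 in oligodendrocytes relative to OPCs was at -0.22. The cause of the other changes was not tested. The single EpiSC and rosette arrays could not be left out. Signal over background is unknown, which limits what low levels show.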
